A study of Mus musculus with 16 samples.

Results

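U90926 is a mouse gene whose only product in the RefSeq table is a long non-coding RNA, and it was 1 of 18820 genes measured on 16 whole-transcript arrays of RAW264.7 macrophages. It was chosen by its measured levels in these arrays, so its levels and differences are given as a description with no p-value. A single probe set represented it, and that probe set named no other gene. The 4 groups of 4 arrays, each kept for 24 h, were LPS+DHA5HT (lipopolysaccharide at 1 µg/ml with docosahexaenoyl serotonin, DHA-5-HT, at 1 µM), LPS (the same dose with vehicle), DHA5HT (1 µM alone) and control (vehicle). LPS is a cell wall component of Gram-negative bacteria, and DHA-5-HT joins an n-3 fatty acid to serotonin. The labels name the vehicle as ethanol, at 0.1% by volume, for the control arrays only. Whether each array had a culture of its own is not stated, so errors and p-values reflect the spread among these arrays alone, which may be technical. RAW264.7 is a virus-transformed mouse tumour line and a model of macrophages only in part. In RNA from whole wells, fewer cells carrying a transcript and less transcript per cell cannot be told apart.

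Macrophages sense LPS through the receptor TLR4, whose adaptor proteins switch on the transcription factors NF-kB, AP-1 and the interferon regulatory factors. U90926 is known as a transcript that rises in mouse macrophages after such stimuli, and it carries a short reading frame reported to yield a secreted protein. In mouse preadipocytes its RNA was reported to hold back fat-cell formation by way of PPAR gamma, and in mouse microglia to act with malate dehydrogenase 2 on the chemokine gene Cxcl2.

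The sequence around its annotated start site is shown because RefSeq has the transcript begin there. Neither the start site nor the sequence was measured in these cells. RefSeq places this stretch on the minus strand at chr5:92215359-92215658 of build GRCm38.p6, from 250 bases before to 50 bases after the start. The capitals mark its pair of dinucleotide runs.
U90926: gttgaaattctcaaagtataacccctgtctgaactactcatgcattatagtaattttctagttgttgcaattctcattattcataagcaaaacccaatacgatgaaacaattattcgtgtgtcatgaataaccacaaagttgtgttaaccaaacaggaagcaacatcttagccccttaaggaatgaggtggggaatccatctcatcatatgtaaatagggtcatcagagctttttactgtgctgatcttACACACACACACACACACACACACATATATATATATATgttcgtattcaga
The first run repeats AC 12 times and begins on the base just before the start (position -1). The second repeats AT 7 times from position 24 after it. Of the 32851 mouse promoters of the same length in the RefSeq table, 0.0578% held an AC run of at least that many repeats and 0.0883% an AT run of at least that many, both searched as written on the gene's own strand. For the transcription factors of the LPS response, both strands were searched for the kB motif (GGANNTTCC, held by 4.26% of all those promoters), the AP-1 motif (TGANTCA, 7.81%), the C/EBP motif (TTGCNNAA, 10.8%) and the core of the interferon-stimulated response element (GAAANNGAA, 8.56%). The search also took the NR4A core (AAGGTCA, 4.72%), the antioxidant response element (TGACNNNGC, 12.4%) and TATAAA, the TATA box (13.6%). None of the 7 motifs had a match in the U90926 window, which says only that these letters do not occur in it. Other forms of each motif were not searched, so such sites may be present.

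U90926 was high in cells given LPS alone, intermediate with LPS+DHA5HT and lowest without LPS. In the LPS+DHA5HT arrays 1 to 4 its log2 intensity was 4.21, 4.86, 4.52 and 3.57. In the LPS arrays it was 7.04, 7.33, 7.07 and 6.26. The LPS+DHA5HT and LPS groups did not overlap, with 1.40 between their nearest arrays. It was 2.86, 3.03, 3.08 and 2.96 in the DHA5HT arrays, and 3.32, 2.87, 3.06 and 3.16 in the control arrays. The DHA5HT and control arrays overlapped, and every array given LPS, with or without DHA5HT, lay above every array without it.

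**Figure D1:**
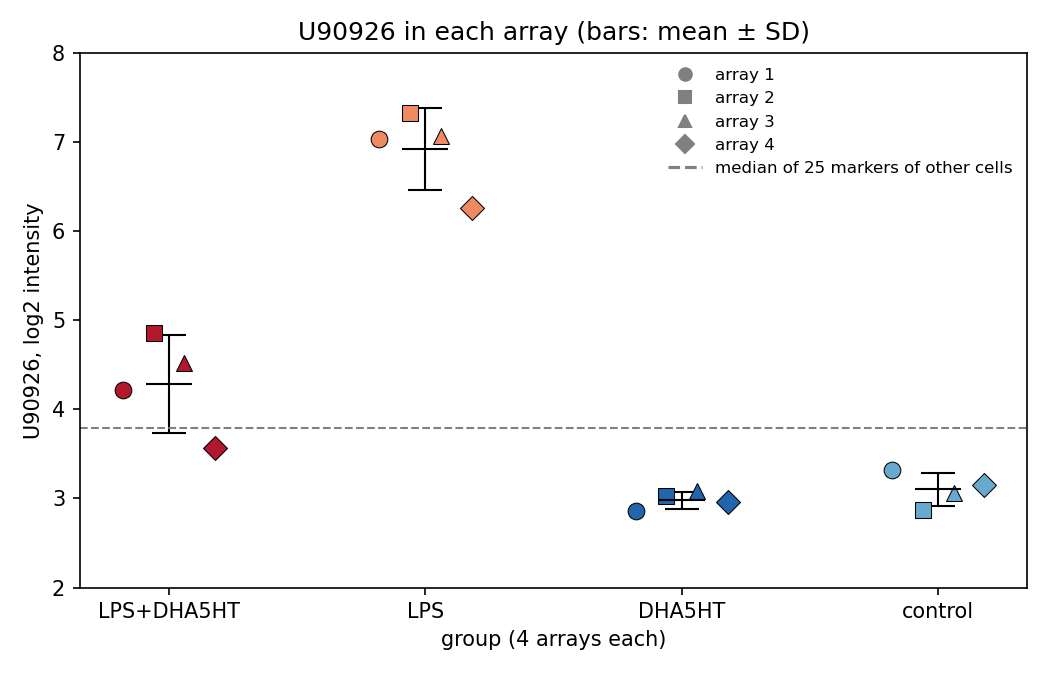
Log2 intensity of U90926 in each of 16 arrays by group, with marker shapes for the array number, black bars for the mean ± SD (n = 4) and a dashed line at the median of 25 markers of other cell types, 3.79. The LPS arrays sit between 6.26 and 7.33, the LPS+DHA5HT arrays between 3.57 and 4.86 and the arrays without LPS below the dashed line.

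Group means were 4.29 ± 0.55 with LPS+DHA5HT, 6.92 ± 0.46 with LPS, 2.98 ± 0.09 with DHA5HT and 3.10 ± 0.19 in control (log2 intensity, SD, n = 4). The order of the levels was therefore LPS, LPS+DHA5HT, control and DHA5HT, and the last pair did not differ beyond their spread. The values in arrays without LPS lay near the lower end of what the arrays can measure. Markers of T and B cells, epithelial cells, fibroblasts, granulocytes and fat cells, which macrophages should lack, had a median of 3.79 over 25 genes and ranged between 2.77 and 5.35. All 10 macrophage markers lay above that range, between 8.10 (Mertk, a receptor for dying cells) and 12.6 (Cd68, a lysosomal protein). Of the LPS+DHA5HT arrays, array 4 lay below 3.79 and the other 3 above it.

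With LPS, U90926 was higher than in control by 3.82 on the log2 scale (SE 0.23). That is 14.1-fold, and at least 8.76-fold when the control mean is set to 3.79. It ranked 36 of 18820 genes by the size of this rise, and 54 when every group mean under 3.79 is set to 3.79. Across all genes 28.4% were called in LPS against control (2376 higher and 2970 lower by limma at an adjusted p under 0.05). Since U90926 was chosen on these values, nothing is read from that share for it.

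With LPS+DHA5HT, U90926 differed from LPS alone by -2.63 (log2, SE 0.23), which is 6.21-fold lower, and no other gene had a decrease as large. The next was Sprr2f, which encodes a small proline-rich protein of the cornified envelope of skin, at -2.21. The U90926 mean with LPS+DHA5HT (4.29) lay within the range of the markers of other cells, 2.77 to 5.35. The fold therefore rests on a lower level that is not clear of background. In this comparison 1.79% of all genes were called. Same-numbered arrays of these groups tended to vary together, and with the number as a block the share called was 3.44% and the SE for U90926 was 0.20. Within same-numbered pairs the difference ran from -2.82 to -2.47, a spread (SD 0.16) below that among the arrays of either group.

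DHA5HT alone against control gave -0.12 (log2, SE 0.23), with both means under 3.79, so no fold is given. Of all genes, 0.6% were called there, and 0.951% with the number as a block. LPS+DHA5HT against DHA5HT gave 1.31 (log2, SE 0.23), and 0.50 when the DHA5HT mean is set to 3.79, or 1.41-fold. The lowest LPS+DHA5HT array was 0.49 above the highest DHA5HT array. The DHA5HT difference in LPS-treated cells minus that in cells without LPS was -2.51 (log2, SE 0.32), the lowest value of all genes. This last value compares a measured level with a pair of levels at the lower end of the range.

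On the log2 scale, 69.0% of the U90926 response to LPS was absent with DHA5HT, between 54.1% and 87.9% over the 4 LPS+DHA5HT arrays (SD 14.4). On linear intensities the share was 90.3%, and with the control mean set to 3.79 it was 84.1% (log2). The share uses the LPS arrays in both of its parts, so the rise and the decrease are not independent. Among 120 genes called higher with LPS by at least 2 on the log2 scale, the median log2 share was 16.2% and the quartiles were 7.51% and 26.2%. In 7 of them the log2 share was over 50%, and in 10 it was below 0, meaning a higher level with LPS+DHA5HT than with LPS. On linear intensities the shares above 0 were larger for these genes too, so the 90.3% of U90926 does not compare with these log2 values. U90926 was the third of the 120 by the log2 share, as it was with means under 3.79 set to 3.79, and 2 of 120 on linear intensities. Nr4a3, a nuclear receptor gene switched on early after stimulation, had 83.1% and Sprr2f 70.3%, while Csn1s1, a milk casein gene, came next after U90926 with 68.0%. Nr4a3 and Csn1s1 had means of 3.27 and 3.55 with LPS+DHA5HT and 2.90 and 2.81 in control, all under 3.79.

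**Figure D2:**
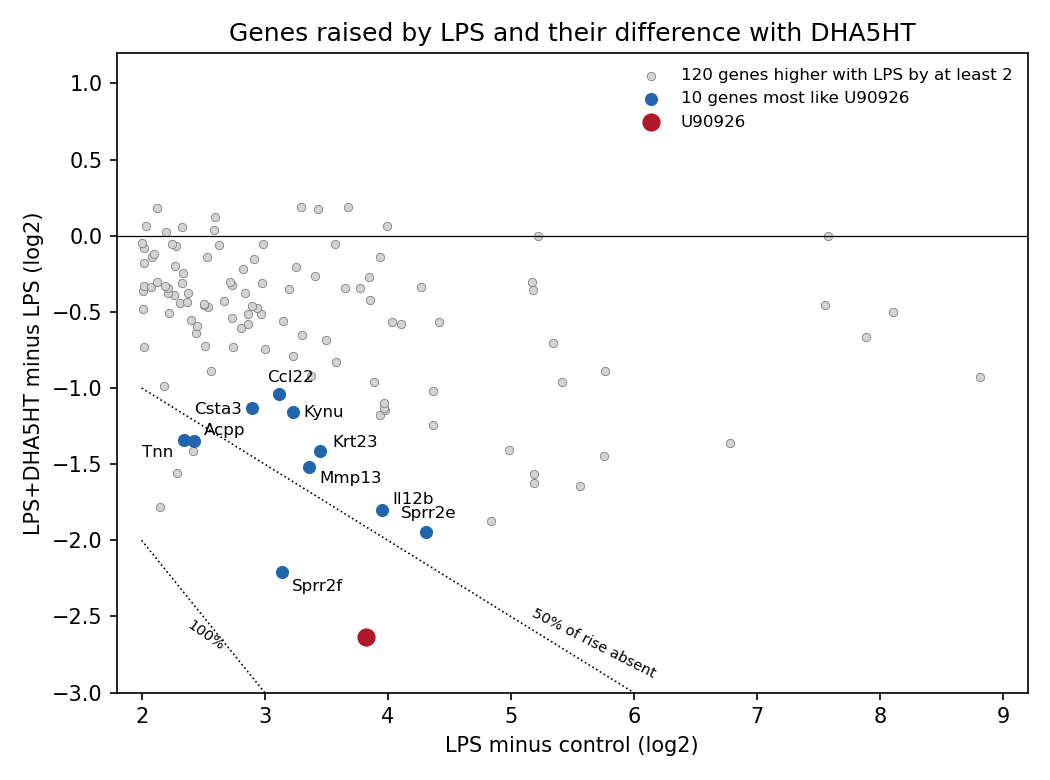
Each point is 1 of 120 genes called higher with LPS by at least 2, with LPS minus control on the x axis and LPS+DHA5HT minus LPS on the y axis (both log2 differences of means of 4 arrays). Dotted lines mark a decrease of 50% and 100% of the log2 rise. U90926 at 3.82 and -2.63 is the lowest point, and the median gene lost 16.2% of its log2 rise.

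The 4 LPS+DHA5HT arrays were not alike in how far they had moved towards the LPS state. On a scale with the control mean at 0% and the LPS mean at 100%, each array's position was its median over the other 119 of these genes. The LPS+DHA5HT arrays 1 to 4 stood at 83.1%, 90.7%, 87.4% and 76.6%, and U90926 had the same order over these arrays, highest in array 2 and lowest in array 4. The LPS arrays 1 to 4 stood at 97.6%, 102.8%, 101.0% and 99.2%, where array 1 was lowest, while U90926 was lowest in LPS array 4. The DHA5HT arrays lay between -4.29% and -1.65% and the control arrays between -2.46% and 1.81%. In LPS+DHA5HT array 4, 84 of the 119 genes (70.6%) had their lowest value of the group, against 28.0% of all genes.

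LPS+DHA5HT array 4 also stood apart on the second principal component (4.72% of the variance), at -22.4 against -9.36 to 10.0 in the other arrays. Without it, U90926 in LPS+DHA5HT against LPS was -2.39 and the absent share 62.7%. LPS+DHA5HT array 1 carries a title that names both agents and a treatment label that names DHA-5-HT alone; the title was followed. Over the other 119 genes raised by LPS, array 1 stood at 83.1% of the LPS position, against -4.29% to -1.65% in the DHA5HT arrays. Its U90926 level of 4.21 lay above all 4 DHA5HT arrays, and without array 1 the difference was -2.61 and the absent share 68.3%. Summed levels of the macrophage markers ran from 15.0 to 15.1 with LPS+DHA5HT, from 15.0 to 15.1 with LPS, from 14.8 to 14.9 with DHA5HT and from 14.8 to 14.9 in control (log2 of the sum over 10 genes). The marker sums of each of the 5 other cell types overlapped between LPS+DHA5HT and LPS, and no marker was at 0. The part of these array differences in the U90926 result was not tested beyond the values given.

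The genes most like U90926 were found by the root mean square distance between log2 profiles over the 16 arrays, after each gene's own mean was subtracted. A gene that does not vary would stand at 1.62 from U90926, and the median of the 18819 other genes was 1.62. The 10 nearest were Sprr2f (0.35), Mmp13 (0.44), Il12b (0.45), Krt23 (0.50), Sprr2e (0.54), Csta3 (0.57), Kynu (0.62), Acpp (0.67), Tnn (0.67) and Ccl22 (0.69). Just outside, Tnnt2, a cardiac troponin gene, stood at 0.70. The first 7 stayed among the nearest 10 in 16 of 16 repeats that each left out 1 array, Acpp in 12, Tnn in 13 and Ccl22 in 9. Ranked on shape alone, with each profile scaled to the same size, 6 of the 10 were kept, and over the 8 arrays given LPS alone or with DHA5HT 5 were kept. Since these genes were picked for their likeness on all arrays, their differences carry no test either.

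**Figure D3:**
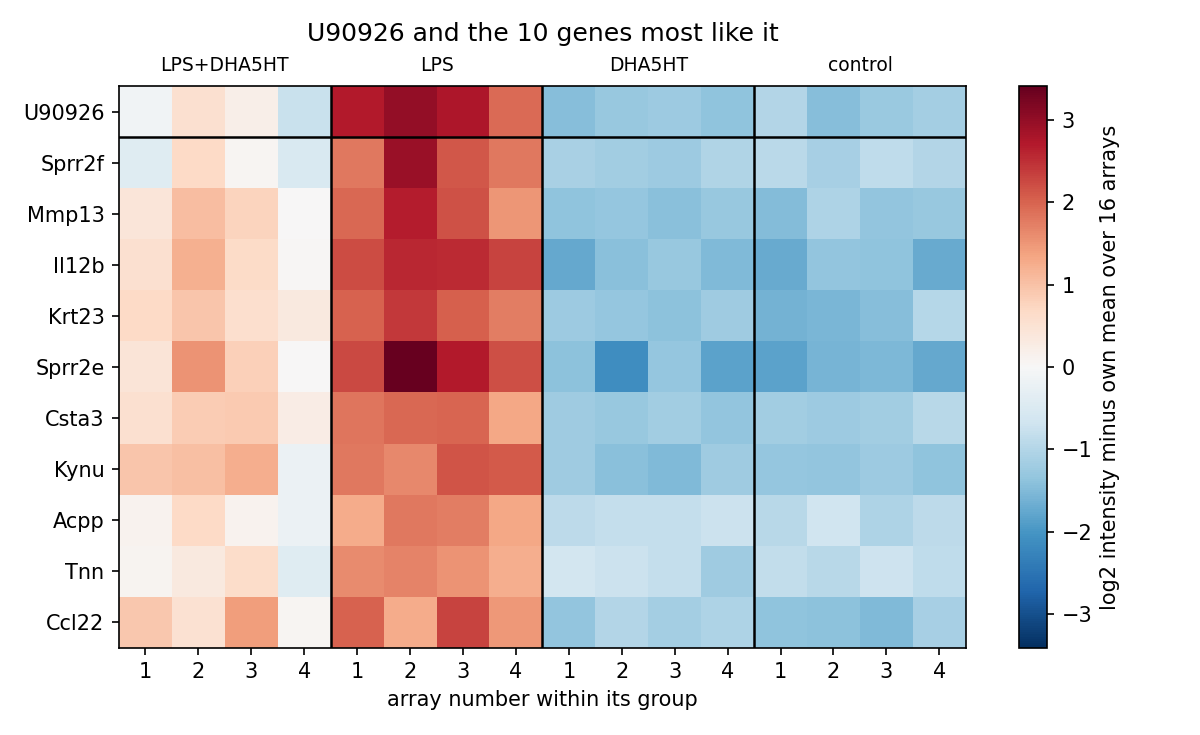
Log2 intensity of U90926 (top row) and of the 10 genes most like it in each of 16 arrays, shown as the difference from each gene's own mean (colour scale), with arrays grouped as LPS+DHA5HT, LPS, DHA5HT and control. The LPS arrays are the highest for all 11 genes on average and the LPS+DHA5HT arrays stand between them and the arrays without LPS.

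Sprr2f was at 4.81 ± 0.55 with LPS+DHA5HT, 7.02 ± 0.54 with LPS, 3.72 ± 0.09 with DHA5HT and 3.88 ± 0.12 in control (log2 intensity, SD, n = 4). Its LPS difference from control was 3.14, close in size to that of U90926, as was its decrease. Sprr2e, from the same family, was 4.31 higher with LPS than in control and -1.95 with LPS+DHA5HT against LPS, and near-identical members of this family may share probe signal. Krt23, a keratin gene, gave 3.45 and -1.41 in the same comparisons, and Csta3, a stefin-type inhibitor of cysteine proteases, 2.90 and -1.13. The control means of Sprr2e, Krt23 and Csta3 lay under 3.79, so their LPS differences are taken against levels not above background.

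Il12b, which encodes the p40 subunit shared by the cytokines IL-12 and IL-23, was at 6.45 ± 0.48 with LPS+DHA5HT, 8.25 ± 0.18 with LPS, 4.35 ± 0.19 with DHA5HT and 4.30 ± 0.21 in control. Its absent share of the LPS response was 45.6% on the log2 scale, below the 69.0% of U90926. On linear intensities these shares were 76.3% and 90.3%. Mmp13, a collagenase gene, was at 7.52 ± 0.44 with LPS+DHA5HT and 9.04 ± 0.49 with LPS, with an absent share of 45.1%. Kynu, whose enzyme acts in tryptophan breakdown, and Ccl22, a chemokine gene for cells that carry CCR4, had absent shares of 35.9% and 33.4%. Acpp, an acid phosphatase gene, and Tnn, a tenascin gene of the extracellular matrix, had smaller LPS differences (2.42 and 2.34) with absent shares of 55.6% and 57.4%. Of the 10, Sprr2f alone had an absent share above that of U90926 on the log2 scale as measured (70.3% against 69.0%), but not with means under 3.79 set to 3.79 (70.3% against 84.1%) or on linear intensities (88.4% against 90.3%). LPS+DHA5HT array 4 was the lowest of its group for all 10, as for U90926, and LPS array 4 the lowest of its group for 6 of 10. The 10 were picked for likeness on these same arrays, so sharing the low arrays of U90926 follows in part from that choice. LPS+DHA5HT array 4 was also lowest for 70.6% of the 119 other genes raised by LPS and 28.0% of all genes. For LPS array 4 these shares were 31.1% and 23.9%.

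Il23a and Il6, other cytokine genes raised by LPS, had absent shares of 30.0% and 8.40% on the log2 scale, against 69.0% for U90926. On linear intensities the shares were 59.8% and 37.0%, against 90.3%. U90926 was chosen by its levels and was the third of 120 genes by the log2 share. Smaller shares in other genes therefore follow largely from that choice. Il23a, the partner of Il12b in IL-23, was at 7.45 ± 0.27 with LPS+DHA5HT and 8.63 ± 0.21 with LPS, a decrease of -1.18 (limma, SE 0.12, adjusted p = 3.96e-05). Il6, a cytokine of the acute phase, differed between the same groups by -0.66 (log2, limma, SE 0.10, adjusted p = 0.00278). The difference between these decreases and that of U90926 was not tested.

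The genes that U90926 was linked to in other mouse cells differed from it in the pattern of their transcript levels. The reported links are about how the U90926 RNA acts, and transcript levels of Mdh2, Cxcl2 and Pparg do not test them. Mdh2, the malate dehydrogenase, differed between LPS+DHA5HT and LPS by 0.0004 (log2, limma, SE 0.05, adjusted p = 0.999), and LPS minus control was 0.13 (adjusted p = 0.0678). Cxcl2, a chemokine gene for neutrophils, rose with LPS by 3.77 (log2, limma, SE 0.16, adjusted p = 6.98e-12), nearly the 3.82 of U90926. With LPS+DHA5HT against LPS, however, Cxcl2 differed by -0.35 (limma, SE 0.16, adjusted p = 0.344). In cells without LPS, where U90926 was too low to compare, Cxcl2 fell with DHA5HT to 7.05 ± 0.35, against 7.98 ± 0.25 in control (limma, adjusted p = 0.00588).

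Pparg, the gene of PPAR gamma, fell with LPS to 4.12 ± 0.19, against 4.78 ± 0.16 in control (log2 intensity, SD, n = 4, limma, adjusted p = 0.00111). It was 4.05 ± 0.29 with LPS+DHA5HT and 4.12 with LPS (limma, difference -0.08, adjusted p = 0.878), so the lower U90926 with DHA5HT went with no detected difference in Pparg. These Pparg means lay within the 2.77 to 5.35 range of the markers of other cells, where a difference could be missed. Of 24 PPAR gamma and fat-cell genes, all measured, 6 rose and 6 fell with LPS, against the 28.4% called among all genes. Cebpb and Cebpd, transcription factor genes of early fat-cell formation that macrophages also use, rose by 1.21 and 0.87 on the log2 scale, and Angptl4 and Cpt1a, lipid-metabolism genes, fell by 0.80 and 0.75 (limma, largest adjusted p of the 4 = 1.40e-05). The list median was -0.02, against 0.004 over all genes. With LPS+DHA5HT against LPS the list held 1 call, Abca1, a cholesterol exporter, at -0.73 (log2, limma, SE 0.12, adjusted p = 0.00379), beside 1.79% of all genes. With DHA5HT alone none was called by limma, with 4 at an unadjusted p under 0.05, beside 0.6% of all genes called.

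Of 32 genes of the TLR4 route, 26 were measured, and 11 rose and 4 fell with LPS, beside 28.4% of all genes. The 4 with the smallest p all rose: Cebpb, Irf7 (an interferon regulatory factor, 2.02), Irak2 (a kinase next to the receptor, 1.11) and Ikbke (a kinase of the interferon branch, 0.85). Tlr4 itself was 8.23 ± 0.11 with LPS and 8.56 ± 0.12 in control, a fall of 0.33 (limma, adjusted p = 0.0253) whose call was lost when LPS array 1, LPS array 3 or control array 4 was left out (limma, adjusted p between 0.0680 and 0.0849). With LPS+DHA5HT against LPS, 1 of the 26 was called, Fos, an AP-1 subunit, which fell by 0.81 (limma, SE 0.14, adjusted p = 0.0058). With the array number as a block Stat3, a cytokine signal carrier, was called too (-0.25, adjusted p = 0.0445). These counts of 1 and 2 stand beside 1.79% and 3.44% of all genes. Tlr4 differed by 0.24 in this comparison (limma, adjusted p = 0.327). With DHA5HT alone, Irf7 fell by 2.21 (limma, SE 0.17, adjusted p = 2.02e-06) and with the block Ticam1, a TLR adaptor, fell by 0.36 (adjusted p = 0.0336), while U90926 was under 3.79 in both groups.

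U90926 lies on chromosome 5 near a cluster of interferon-induced chemokine genes. The measured genes next to it in the RefSeq table, Uso1 (vesicle tethering) on the left and Ppef2 (a phosphatase) on the right, were not called with LPS. Uso1 differed by 0.19 (limma, SE 0.07, adjusted p = 0.0642) and Ppef2, at 3.07 with LPS and 3.19 in control, by -0.12 (limma, adjusted p = 0.333). Of the 10 measured genes on each side, 4 rose and 4 fell with LPS, 40.0% against 28.4% of all genes. The risers were Cxcl10 (3.50), Cxcl11 (1.42), Art3 (0.72), an ADP-ribosyltransferase gene, and Sdad1 (0.50), a gene linked to ribosome assembly. The genes that fell were Scarb2 (-0.82), a lysosomal membrane protein, Naaa (-0.68), which breaks down N-acylethanolamines, Thap6 (-0.48) and Btc (-0.44), a growth factor of the EGF family whose LPS mean was under 3.79 (limma, log2, largest adjusted p of the 8 = 0.0299).

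Cxcl10, a chemokine gene for CXCR3-bearing cells, had the rise closest in size to that of U90926 among these 20 genes. It was 10.9 ± 0.36 with LPS+DHA5HT and 11.6 ± 0.10 with LPS, a difference of -0.68 (log2, limma, SE 0.19, adjusted p = 0.0770, and 0.0425 with the array number as a block). This decrease was smaller than the -2.63 of U90926, and the difference between them was not tested. With DHA5HT alone Cxcl10 fell to 6.36 ± 0.41, against 8.12 ± 0.25 in control (limma, adjusted p = 3.88e-05). U90926 was under 3.79 in both of those groups and could not be compared there. Cxcl11, listed as a transcribed pseudogene in the RefSeq table, differed by -0.64 between LPS+DHA5HT and LPS (limma, SE 0.17, adjusted p = 0.0762), and was called without LPS+DHA5HT array 3 (limma, adjusted p = 0.0332). Cxcl9, from the same cluster, stood at 3.49 with LPS+DHA5HT, 3.44 with LPS and 3.35 in control, all under 3.79. None of the 20 neighbours was called by limma in LPS+DHA5HT against LPS, with 4 at an unadjusted p under 0.05, beside 1.79% of all genes called. With the block 1 was called, beside 3.44% of all genes.

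**Figure D4:**
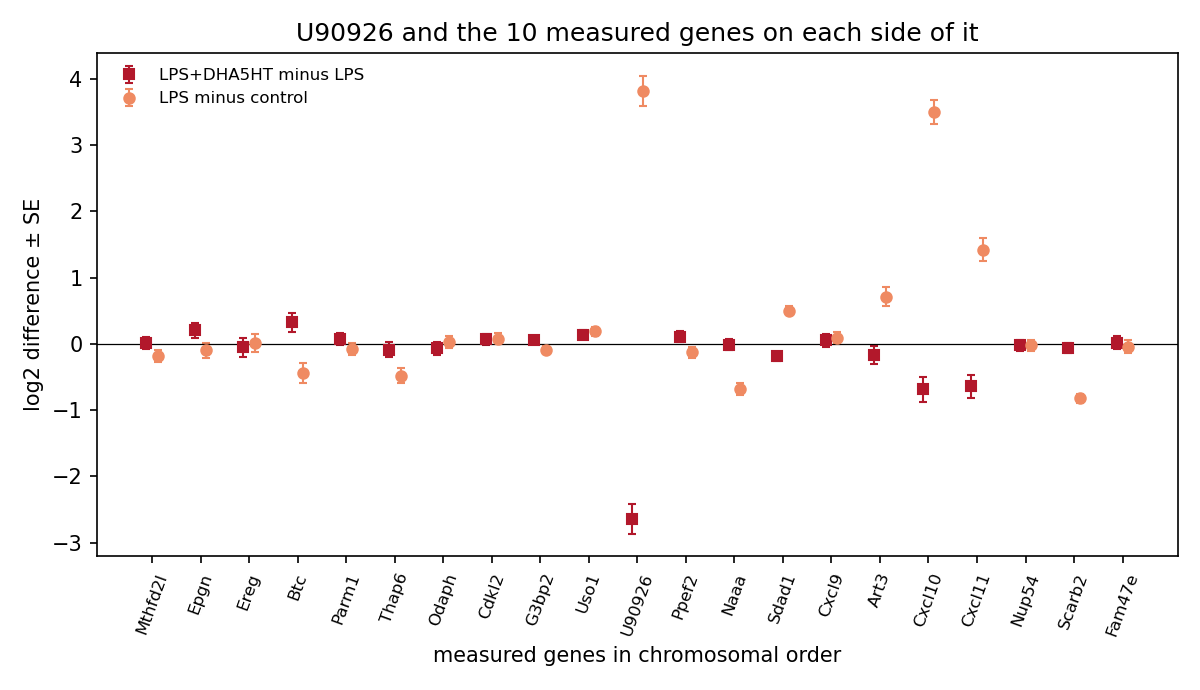
Log2 difference ± SE of LPS+DHA5HT minus LPS (squares) and LPS minus control (circles) for U90926 and the 10 measured genes on each side of it, in chromosomal order. The LPS rises of U90926 (3.82) and Cxcl10 (3.50) stand out, and at U90926 the difference with DHA5HT is -2.63, against -0.68 at Cxcl10.

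The RefSeq table marks 313 of the measured genes as long non-coding, U90926 included. Of the other 312, 19 rose and 18 fell with LPS, 11.9% against 28.4% of all genes. By size of the rise U90926 was the first of the 313, and the next were A530040E14Rik (1.25), Phxr4 (1.18), AI504432 (1.13), AW112010 (1.12) and Morrbid (0.99), a regulator of myeloid cell survival. These genes were ranked after their values were seen. Phxr4 lay under 3.79 in both groups, and AI504432 and AW112010 did in control, so their rises and their order among these genes rest on levels not above background. In LPS+DHA5HT against LPS, 2 of the 312 rose and 1 fell, 0.962% against 1.79% of all genes, and U90926 had the lowest difference of the 313. The gene that fell was AI504432, by 1.04 (log2, limma, SE 0.09, adjusted p = 8.48e-06) to a mean under 3.79, and those that rose were Brip1os and Rnf227. With DHA5HT alone none of the 312 was called by limma, beside 0.6% of all genes.

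**Figure D5:**
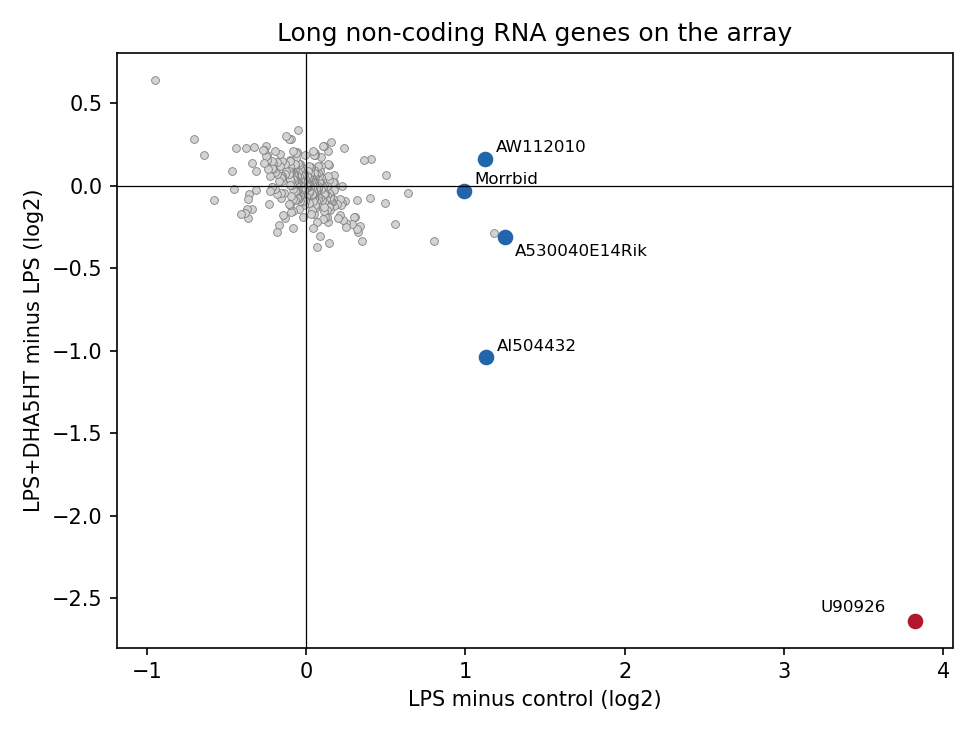
Each point is 1 of 313 genes that RefSeq marks as long non-coding, with LPS minus control on the x axis and LPS+DHA5HT minus LPS on the y axis (log2 differences of means of 4 arrays). U90926 at 3.82 and -2.63 lies apart from the others, among which AI504432 stands at 1.13 and -1.04.

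A list of 30 well-known long non-coding genes had 13 measured, of which 1 rose and 2 fell with LPS (23.1%, beside 28.4% of all genes). AW112010, a transcript of activated immune cells, was 4.63 ± 0.35 with LPS and 3.51 ± 0.13 in control, a rise of 1.12 (limma, SE 0.15, adjusted p = 9.23e-06). It was 4.79 ± 0.26 with LPS+DHA5HT, a difference from LPS of 0.16 (limma, SE 0.15, adjusted p = 0.691), where U90926 had -2.63. The host genes Mir17hg, of a microRNA cluster, and Snhg5, of small nucleolar RNAs, fell with LPS by 0.25 and 0.37 (limma, adjusted p = 0.0219 and 0.0306). The call of Mir17hg was lost when array 3 of either group was left out, and that of Snhg5 when LPS array 3 or 4, or array 2 or 3 of the control group, was. Without array 3 of either group AW112010 was the sole call of the list. None of the 13 was called in LPS+DHA5HT against LPS (limma, 2 at an unadjusted p under 0.05, beside 1.79% of all genes called) or in DHA5HT against control (limma, 0 at an unadjusted p under 0.05, beside 0.6% called). At such shares a count of 0 among 13 genes is not a result about them.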

How the data were processed

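RNA of RAW264.7 cells (100 ng per array, RNA integrity number above 8, per the labels) was measured on 16 arrays, 4 a group. The authors made the deposited log2 values with RMA, per the submitters' processing notes; RMA corrects background, normalizes between arrays and gives 1 value per probe set. Its version and any filter are not given in the sources used here. The table held 35556 probe sets, from 1.20 to 13.68 with none missing and array medians between 4.58 and 4.67. The array's gene table named 1 gene for 21218 probe sets, several for 1881 and none for 12457. Of several probe sets of a gene (1386 genes), that with the highest mean was kept, which left 18820 genes, of which 18787 matched RefSeq. The number of arrays limits precision.

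A linear model with 1 mean per group was fitted to all 16 arrays (limma 3.58.1, R 4.3.3, 12 residual degrees of freedom). Two-sided moderated p-values were adjusted by Benjamini-Hochberg over 18820 genes in each of 3 comparisons, with a threshold of 0.05. The procedure was tested on simulated data. Figures used matplotlib 3.10.9 in Python 3.11.15. Groups followed the titles. U90926, the lists and the tests were chosen with earlier results of these data known. Besides U90926, the rule named its 10 nearest genes, the 5 measured genes on each side, up to 4 called members of each list with the smallest p, and Mdh2, Cxcl2, Pparg, AW112010, Tlr4, Il23a, Il12b, Il6, Cxcl9, Cxcl10 and Cxcl11. Other genes were named after their values were seen.

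Titles give all groups the array numbers 1 to 4. Deviations from the group means correlated across genes between same-numbered arrays by 0.116 to 0.205 for LPS+DHA5HT and LPS and by 0.131 to 0.183 for DHA5HT and control. All were over 0.1, so the numbers were taken as a possible pairing of those groups. Differently numbered arrays could correlate as highly (0.127 for LPS array 2 with LPS+DHA5HT array 4), so the pairing is not certain. The main model held no block. For LPS and control the same-numbered correlations were 0.0995 to 0.131, the lowest just under 0.1, and the number was not taken as a pairing. They were 0.0751 to 0.126 for LPS+DHA5HT and control, 0.0699 to 0.232 for LPS+DHA5HT and DHA5HT, and 0.0931 to 0.146 for LPS and DHA5HT. The block, where used, was a single number effect shared by all 4 groups, so it applied to these groups too. Alternatives were the array number as a block, repeated quantile normalization, centring on array medians, an intensity trend, a brightness filter, the compared arrays alone, other measures of likeness, and leaving out each array.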

Additional observations from a re-analysis of the deposited data

Results flagged for a closer look

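Acpp differed by -1.35 (log2) between LPS+DHA5HT and LPS and by 0.08 between DHA5HT and control, a difference of -1.43 that was not tested. Acpp was picked for its likeness to U90926, so this contrast follows in part from that choice, and other genes so picked had one too. Every LPS+DHA5HT array lay below the LPS mean and every DHA5HT array above the control mean, and the same held for AI504432. AI504432 differed by -1.04 in LPS-treated cells and by 0.14 without LPS, a difference of -1.18 that was not tested. Irak2 stood at 9.08 in DHA5HT array 3, against 8.88 to 8.91 in the other arrays of the group. G3bp2, a stress granule protein gene near U90926, stood at 9.50 in LPS array 2, against 9.59 to 9.60 in its group. These were the 2 arrays far from the rest among 172 groups of 4 arrays (43 genes), where chance flags about 1 in 20. No group of U90926 held such an array.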

How the results depend on the processing

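Every U90926 difference and its absent share moved by less than the spread between arrays under each alternative that could be run, except a pair added after seeing the data. The block, the trend and the compared arrays alone cannot change a difference of group means in this design. Leaving out 1 of 4 arrays shifts a group mean by only part of that array's deviation, so small moves there say little. With means under 3.79 set to 3.79, LPS against control was 3.13, LPS+DHA5HT against DHA5HT 0.50 and the share 84.1%, and on linear intensities the share was 90.3%. U90926 had 1 probe set, so no other could be tried, and it was too dim for the brightness filter. Leaving out 1 array gave 3.68 to 4.04 for LPS against control, -2.86 to -2.39 for LPS+DHA5HT against LPS, and 62.7% to 73.9% for the share. Of 33 calls of named genes, 30 held throughout, 3 were lost somewhere and 0 of 96 results reversed. Another 6 results of named genes that were not called in the main model were called under some alternative. The causes of the changes below were not tested. Genes called in LPS+DHA5HT against LPS (337 of 18820) numbered 86 with the compared arrays alone, 486 with the trend, 330 with repeated quantile normalization and 647 with the replicate block. With the brightness filter 557 were called, out of only the 9410 genes it kept. Calls in this comparison numbered 143 to 289 without 1 array: 222, 143, 223 and 177 without LPS arrays 1 to 4, and 180 and 154 without LPS+DHA5HT arrays 1 and 4. In that comparison the TLR4 list held 3 calls with the trend, 2 with repeated quantile normalization, 2 with the block and, of 25 members kept, 5 with the filter. The PPAR gamma list held 2 with the filter, of 14 kept. The neighbours held 2 with the trend, 2 of 12 kept with the filter, 1 with the block and 0 to 1 without 1 array. In DHA5HT against control, 179 genes were called with the block (113 without), 118 with centring, 149 with the trend and 154 of 9410 with the filter. The TLR4 list held 2 calls with centring, trend, filter or block, and 1 to 2 without 1 array (2 without control array 1). In LPS against control, 5757 genes were called with the block and 5262 of 9410 with the filter. The long non-coding list held 1 call with the filter, of 7 kept, and 1 to 3 without 1 array. Of the 10 nearest genes, 6 were kept on scaled shape, 5 over the LPS-treated arrays and 7 to 10 without 1 array. Levels under 3.79 limit what U90926 can show without LPS.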

Other observations

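AI504432, a long non-coding gene named after its values were seen, was the other member of its class that LPS raised and DHA5HT lowered. Its log2 intensity was 3.66, 3.90, 3.81 and 3.67 in LPS+DHA5HT arrays 1 to 4, 4.59, 4.80, 5.03 and 4.79 in LPS arrays, 3.92, 3.71, 3.71 and 3.91 in DHA5HT arrays, and 3.72, 3.78, 3.61 and 3.57 in control arrays. Its LPS+DHA5HT arrays overlapped the arrays without LPS. Its means with LPS+DHA5HT (3.76) and in control (3.67) were both under 3.79, so no share of its LPS difference is given. Its LPS rise of 1.13 was under the 2 used to list genes by share. Over the LPS-treated arrays alone, Nr4a1, Cstdc4, Sprr2d, Csf3 and Stfa3 were also among the 10 genes nearest to U90926.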
